A study of Mus musculus with 42 samples.

Results

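TRBV26 is the mouse T-cell receptor β variable segment that encodes Vβ3, and its clonotypes were taken as every line of the 5 clonotype tables whose V segment was TRBV26. They numbered 753 of 31576 clonotypes and held 13972 of 797885 reads. Of these, 713 were productive, meaning that the CDR3 was in frame and had no stop codon, among 28186 productive clonotypes of 30 TRBV segments. In RefSeq, Trbv26 is a V segment of 389 bases on chromosome 6, from 41227525 to 41227913 in the mouse build GRCm38.p6, between the pseudogenes Trbv25 and Trbv27.

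In the series, TCRβ RNA was read from sorted T cells of 3 organs (thymus, spleen and lung). The mice carried Foxn1-Cre, a recombinase expressed in thymic epithelium, and floxed alleles of NIK, the NF-κB-inducing kinase. Mice called KO had the genotype Foxn1Cre x NIKfl/fl, and mice called WT had Foxn1Cre x NIKfl/wt, so that they carried Cre and a floxed allele too. The KO libraries were thymus Tregs of mouse 618 (CD4+CD25hi), lung CD4 cells of mouse 617, spleen CD8 cells of mouse 617 and spleen CD4 cells of mouse 597. The WT library was spleen CD8 cells of mouse 614. Conventional CD4 and CD8 cells were gated as CD25- and CD62L+, so effector cells that have shed CD62L lie outside the gate. The ages of the mice were not used here, and the other 37 of the 42 samples were not analysed here. The tables hold β chains alone, so neither the sorted cell types nor the deletion of NIK could be checked against marker genes.

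Total reads were 205882 for thymus Tregs, 140826 for lung CD4, 194834 for spleen CD8 of the KO, 98655 for KO spleen CD4 and 157688 for WT spleen CD8, and the libraries held 4490, 3861, 3072, 2035 and 18118 clonotypes in the same order. In KO spleen CD8 the 10 leading clonotypes took 39.0% of productive reads, against 1.62% in WT spleen CD8, and none of the leading 10 of any of the 5 libraries used TRBV26. With 1 library per group, every difference below is between libraries. Genotype, lineage, organ, mouse and library cannot be told apart, and 95% intervals (exact Clopper-Pearson) cover counting error only.

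A β chain is made in the thymus by joining a V, a D and a J segment. The V segment encodes the CDR1 and CDR2 loops, which mostly touch the MHC molecule, and the first residues of CDR3, while the rest of CDR3, the loop that mostly touches the peptide, comes from trimmed D and J ends and added bases. Vβ3 chains are known as targets of superantigens: staphylococcal enterotoxins stimulate them, and in mouse strains that carry certain endogenous mammary tumour proviruses thymocytes with Vβ3 are deleted. Vβ3 is also known from receptors of CD4 cells that recognise cytochrome c peptides.

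The end of the V segment is shown first, because it decides where a TRBV26 CDR3 begins in these tables. Listed CDR3 sequences of this segment started well upstream of the conserved Cys, which is normally the first CDR3 residue. The most frequent base at each position was as follows, with the codon of the conserved Cys in capitals.
TRBV26 V end: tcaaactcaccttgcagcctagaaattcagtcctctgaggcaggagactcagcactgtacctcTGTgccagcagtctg
The 63 bases before the capitals would not belong to a CDR3 counted from the conserved Cys, and the 15 bases from TGT on were taken as the V-encoded start of the loop. This end was read from rearranged sequences and not from a germline reference: of the 709 clonotypes whose last Cys was residue 22, 59.8% had the T at base 14, 69.7% the G at base 15 and 44.6% the leading base at 16, so that the germline segment may end elsewhere. The first 66 bases were identical in 663 of the 713 productive clonotypes (93.0%), and the last Cys was residue 22 of the listed amino acid sequence in 709 of them. Lengths and features were therefore measured from the last Cys, counted as position 1.

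The upstream start also touched the listed segment ends. No V end was given for any of the 713 productive clonotypes. A D segment was listed for 711 of them, and in 266 (37.4%) it lay before the Cys codon, where the sequence is V-encoded. In 261 of these it covered the same bases, 28 to 32 of the listed sequence, and 262 of the 266 were listed as TRBD2. Counted over all 5 libraries, 445 listed D segments lay beyond the Cys codon, of which 250 were TRBD1 and 195 were TRBD2. The listed D segments were not used further.

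TRBV26 made up 2.90% of productive clonotypes in thymus Tregs (109 of 3761; interval 2.39% to 3.49%) and 3.94% in lung CD4 (132 of 3354; 3.30% to 4.65%). In spleen it made up 1.97% in KO CD8 (52 of 2644; 1.47% to 2.57%), 2.84% in KO CD4 (49 of 1724; 2.11% to 3.74%) and 2.22% in WT CD8 (371 of 16703; 2.003% to 2.46%). The lung library was thus highest and KO CD8 lowest, and the 3 libraries of CD4 lineage lay above both CD8 libraries. Going down from lung, each neighbouring pair in that order (lung and Tregs, Tregs and KO CD4, KO CD4 and WT CD8, WT CD8 and KO CD8) had overlapping intervals. Among the segments listed in each library TRBV26 ranked 12 of 28 in lung, 14 of 28 in Tregs, 14 of 26 in KO CD4 and 17 of 29 in both CD8 libraries.

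**Figure D1:**
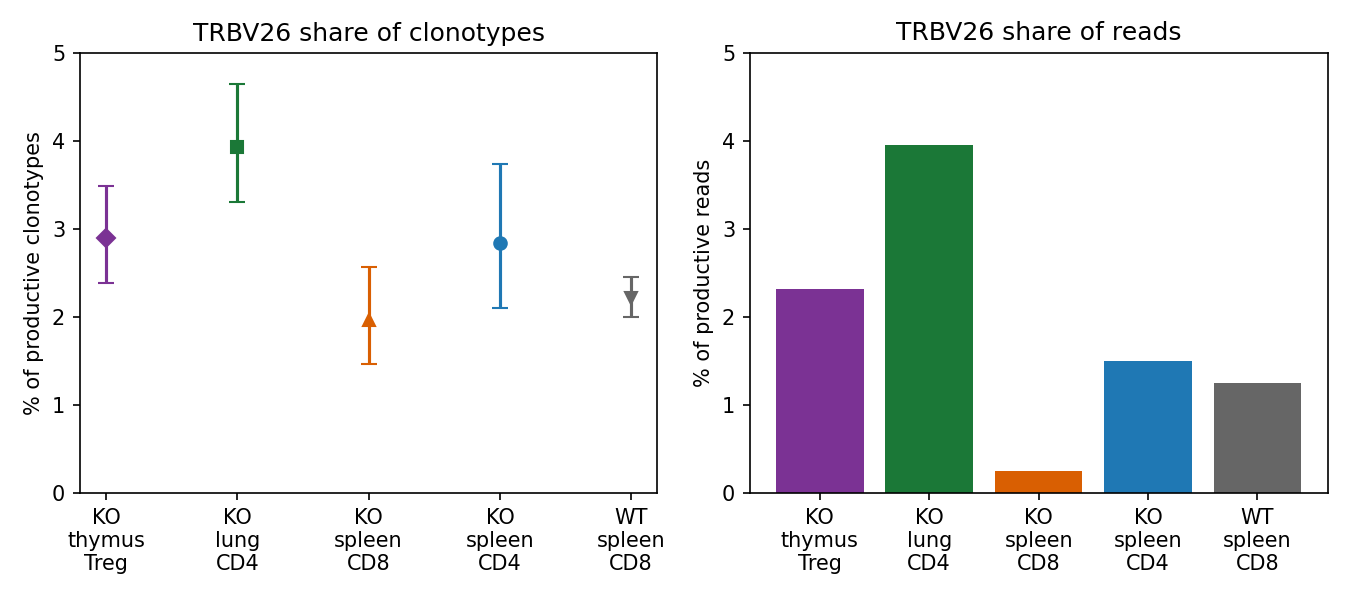
Share of TRBV26 among productive clonotypes (left, with exact 95% intervals) and among productive reads (right, bars) in the 5 libraries. By clonotypes the libraries lie between 1.97% and 3.94%, while by reads KO spleen CD8 is at 0.255% and lung CD4 at 3.96%.

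Measured by reads, the libraries were much further apart than by clonotypes. TRBV26 held 2.32% of productive reads in thymus Tregs (4581 reads), 3.96% in lung CD4 (5411), 0.255% in KO spleen CD8 (487), 1.497% in KO spleen CD4 (1441) and 1.249% in WT spleen CD8 (1924). In lung the shares of reads and clonotypes were nearly equal, and in the other 4 libraries the share of reads was below that of clonotypes. Fewer cells of a clone and less receptor RNA per cell cannot be told apart in such reads. Without the 10 leading clonotypes of each library, which hold no TRBV26, the share of reads was 2.42% in Tregs, 4.54% in lung CD4, 0.417% in KO CD8, 1.76% in KO CD4 and 1.27% in WT CD8, so that KO CD8 was still lowest. The median TRBV26 clonotype had 27 reads in Tregs, 7 in lung, 5 in KO CD8, 20 in KO CD4 and 4 in WT CD8, against 31.5, 10, 8, 26 and 6 for clonotypes of the other segments in the same libraries.

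Pairs of libraries were compared by the ratio of clonotype shares, called lower at 0.8 or less and higher when its inverse was 0.8 or less, and set beside the same calls for all TRBV segments with at least 1% of clonotypes in either library. Between genotypes, KO over WT spleen CD8, the TRBV26 ratio was 0.885 and was not called. In that pair 1 of 19 segments was higher (5.26%) and 2 were lower (10.5%), with a median ratio of 0.997. By reads the TRBV26 ratio was 0.204, and it was 0.328 without the leading 10 clonotypes of each library, which took the large share of KO CD8 reads given above. Why the ratio by reads stayed below 0.885 without them was not tested. Among clonotypes with at least 2 reads the ratio of clonotype shares was 1.03.

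Between lineages, KO spleen CD8 (mouse 617) over KO spleen CD4 (mouse 597), the ratio was 0.692, a lower call, in a pair where most segments moved past the limits: 7 of 22 were higher (31.8%) and 10 were lower (45.5%). The intervals of the shares overlapped, and 13 of the 22 segments had a larger ratio than TRBV26. For lung over spleen CD4 cells of KO mice (617 and 597) the ratio was 1.38, and here few segments moved: 2 of 22 were higher (9.09%), TRBV26 among them, and 4 were lower (18.2%). Just 1 of the 22 segments had a larger ratio than TRBV26, although the intervals of the shares overlapped. By reads the ratio was 2.64.

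Thymus Tregs over spleen CD4 cells of KO mice gave 1.02 by clonotypes and 1.55 by reads, with 1 of 22 segments higher (4.55%) and 3 lower (13.6%). The remaining pair came from the same mouse, 617: lung CD4 over spleen CD8 gave 2.001 by clonotypes and 15.6 by reads. The intervals of the 2 shares (3.30% to 4.65% in lung, 1.47% to 2.57% in CD8) did not overlap, but 8 of 19 segments were higher (42.1%) and 7 were lower (36.8%) in that pair, and 2 had a larger ratio than TRBV26. The pairs share libraries, so the ratios are not independent of each other.

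The other 9 segments known for superantigen binding were set beside TRBV26 as counts. For lung over spleen CD4, 1 of the 9 was higher and 1 was lower, beside 2 and 4 of all 22 segments. For Tregs over spleen CD4 none of the 9 was called, beside 1 higher and 3 lower of all 22. For KO CD8 over KO CD4, 5 of 9 were higher and 3 were lower, beside 7 and 10 of all 22 segments. For KO over WT CD8, 2 of the 8 with enough clonotypes were lower and 0 were higher, beside 2 and 1 of all 19. The segments whose pattern over the 5 libraries was most like that of TRBV26, by the mean absolute difference of centred log2 shares among 21 segments, were TRBV3 (0.12), TRBV15 (0.13) and TRBV20 (0.14). TRBV3 made up 9.31% of clonotypes in Tregs, 9.09% in lung, 5.22% in KO CD8, 7.89% in KO CD4 and 5.68% in WT CD8, so it too was lowest in the CD8 libraries.

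The leading TRBV26 clonotype of each library shows how the loop was built. Each sequence runs from the Cys codon to the end of CDR3, with the bases that match neither the V end nor the listed J segment in capitals; these come from the D segment or were added at the joins.
Thymus Tregs, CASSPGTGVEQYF: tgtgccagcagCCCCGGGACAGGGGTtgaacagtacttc
Lung CD4, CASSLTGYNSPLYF: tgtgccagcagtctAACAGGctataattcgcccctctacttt
KO spleen CD8, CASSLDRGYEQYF: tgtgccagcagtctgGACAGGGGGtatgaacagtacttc
KO spleen CD4, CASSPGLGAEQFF: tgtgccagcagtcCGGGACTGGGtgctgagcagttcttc
WT spleen CD8, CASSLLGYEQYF: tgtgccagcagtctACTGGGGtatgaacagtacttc
In 3 of these loops position 5 is Leu, as in the V end shown above (CASSL), while in the Treg and KO CD4 clones the V end stopped before or within that codon and position 5 is Pro. The bases in capitals number 15, 6, 9, 10 and 7 in the order of the lines.

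The largest TRBV26 clones by reads were in lung CD4. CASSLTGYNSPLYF with TRBJ1-6 had 1173 reads there, which was 0.858% of productive reads, 21.7% of TRBV26 reads and rank 11 among all clonotypes of the library. It was followed by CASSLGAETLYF (TRBJ2-3) with 525 reads and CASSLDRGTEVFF (TRBJ1-1) with 462. In lung 8 of 132 TRBV26 clonotypes exceeded 0.1% of productive reads, against 1 of 109 in thymus Tregs. In spleen 0 of 52 did so in KO CD8, 0 of 49 in KO CD4 and 0 of 371 in WT CD8. The other segments together had 181 of 3222 clonotypes above that size in lung, 111 of 3652 in Tregs and 105 of 2592 in KO CD8. They had 202 of 1675 in KO CD4 and 6 of 16332 in WT CD8. In lung the TRBV26 share of such clonotypes was thus close to that of the other segments. In Tregs, KO CD8 and KO CD4 it was lower, from 1, 0 and 0 clonotypes, which was not tested.

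In the other libraries the leading TRBV26 clones were small. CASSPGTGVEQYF (TRBJ2-7) had 201 reads in Tregs (rank 103), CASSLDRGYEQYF (TRBJ2-7) had 53 in KO CD8 (rank 245), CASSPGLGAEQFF (TRBJ2-1) had 95 in KO CD4 (rank 209) and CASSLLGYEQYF (TRBJ2-7) had 36 in WT CD8 (rank 363). The next clones were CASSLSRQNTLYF (177 reads) and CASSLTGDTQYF (147) in Tregs, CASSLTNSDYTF (49) and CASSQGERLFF (39) in KO CD8, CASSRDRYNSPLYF (93) and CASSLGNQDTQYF (85) in KO CD4, and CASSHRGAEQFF (30) and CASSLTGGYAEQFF (26) in WT CD8. The 3 leading clones of each library used 9 J segments in all, and none of the 15 recurred as a leading clone of another library.

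The number of TRBV26 clonotypes that together held 50% of TRBV26 reads was 21 in thymus Tregs, 5 in lung CD4, 7 in KO CD8, 11 in KO CD4 and 71 in WT CD8. The 10 leading clonotypes held 30.2% of TRBV26 reads in Tregs, 68.9% in lung CD4, 59.3% in KO CD8, 47.3% in KO CD4 and 12.1% in WT CD8. Lung was the most concentrated at its top end and WT CD8 the least. The libraries also differ in how many TRBV26 clonotypes they hold (109, 132, 52, 49 and 371 in the same order). WT CD8 holds the most and had the lowest share in its leading 10, but lung had the highest share with more clonotypes than Tregs, KO CD8 or KO CD4. The part of these numbers in the shares was not tested.

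**Figure D2:**
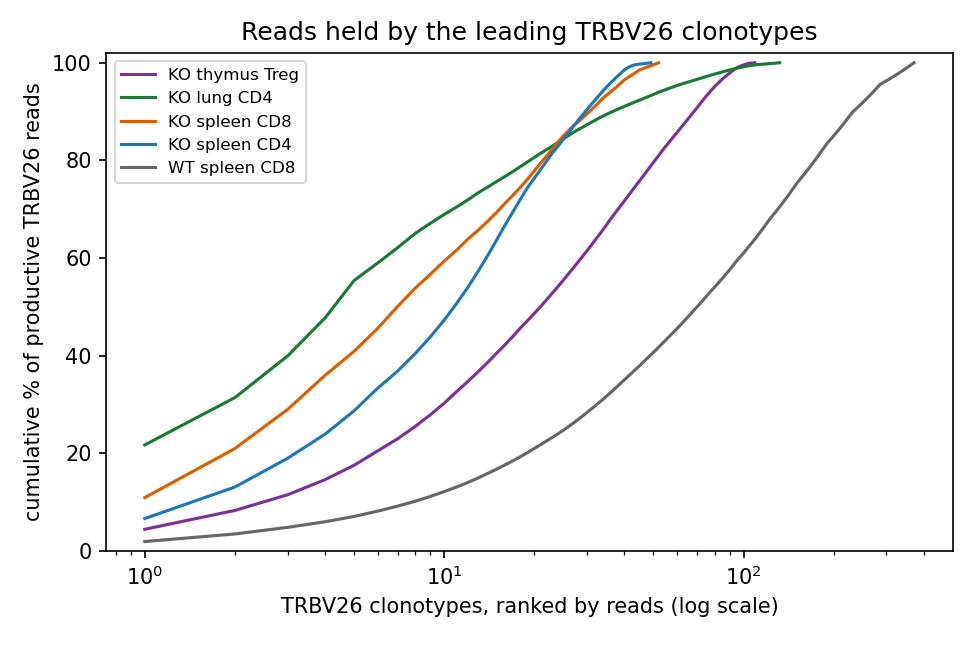
Cumulative percentage of productive TRBV26 reads (y axis) against the number of TRBV26 clonotypes, ranked by reads (x axis, log scale), 1 line per library. The lung CD4 line starts at 21.7% and passes 50% at 5 clonotypes, while the WT spleen CD8 line starts at 1.87% and passes 50% at 71.

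Measured after the last Cys, TRBV26 loops had 12.3 ± 1.29 residues in thymus Tregs, 12.1 ± 2.03 in lung CD4, 11.9 ± 1.35 in KO CD8, 11.5 ± 1.47 in KO CD4 and 12.1 ± 1.46 in WT CD8 (mean ± SD over clonotypes). The median was 12 in every library. The other segments of the same libraries averaged 12.7, 12.1, 12.2, 12.3 and 12.3 residues. TRBV26 was shorter in 4 of 5 libraries, with a mean difference of -0.32 residues, and the exact two-sided sign-flip permutation test of the 5 within-library differences gave p = 0.125 (0.188 after Benjamini-Hochberg adjustment over 9 features). The exception was lung, at 0.0147 residues. These values include lengths of up to 31 residues in lung and 23 in WT CD8, counted from the last Cys. That Cys was residue 22 in 131 of the 132 lung clonotypes, so the 31 residues may not be a loop counted from the conserved Cys. With 7 to 19 residues the lung mean was 11.98, the same as with the last Cys followed by Ala-Ser. With 7 to 19 residues TRBV26 was shorter in 5 of 5 libraries, by 0.16 residues on average (exact sign-flip permutation p = 0.063). With reads as weights the mean difference was 0.0123 residues. With 5 libraries the smallest p this test can give is 0.063, so no feature could pass 0.05. Lung CD4 and KO CD8 came from the same mouse, and with these libraries averaged the test has 4 mice and cannot go below 0.125. Over all libraries, 236 of the 713 clonotypes (33.1%) had exactly 12 residues, against 25.1% of the other segments, 177 had 13 and 122 had 11. For 12 residues the order was the opposite in KO CD8 (23.1% against 28.1%) and as in the pool in each of the other libraries.

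**Figure D3:**
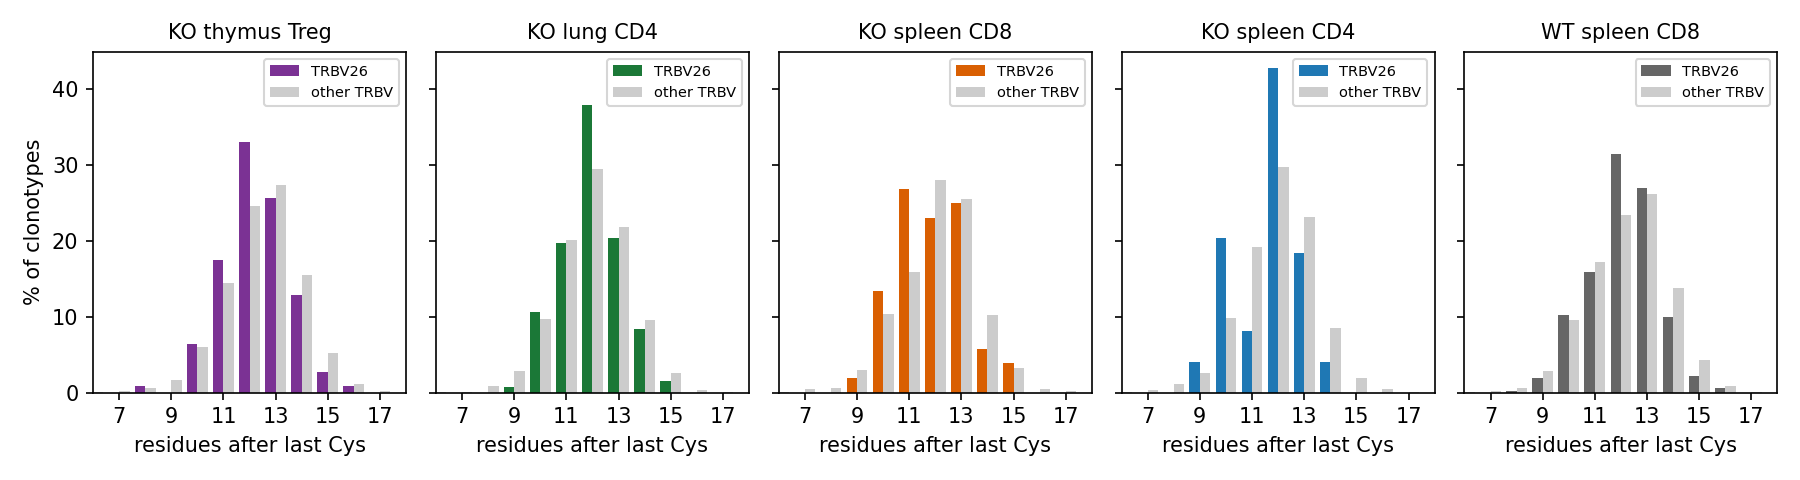
Residues after the last Cys (x axis) as a percentage of productive clonotypes (y axis), in coloured bars for TRBV26 and grey bars for the other TRBV segments, 1 panel per library. The TRBV26 bar at 12 residues is the tallest in every library except KO spleen CD8, and there are few TRBV26 loops above 14 residues.

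The V end shown above spells CASSL. Of the 709 clonotypes with the Cys at residue 22, 409 (57.7%) began with CASSL, and by library the share was 55.6% in thymus Tregs, 67.2% in lung CD4, 55.8% in KO CD8, 60.4% in KO CD4 and 54.9% in WT CD8. Among the other segments 16.7% to 21.2% began that way. Weighted by reads the TRBV26 share reached 81.8% in lung, where the 3 leading clones all begin with CASSL. In place of Leu, position 5 held Pro in 90 clonotypes (12.7%), Arg in 58 (8.18%) and Gln in 34 (4.80%). Asp stood there in 23, of which 21 were in WT CD8.

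The full 15-base V end was kept in 34.3% of TRBV26 clonotypes of Tregs, 49.6% of lung CD4, 44.2% of KO CD8, 58.3% of KO CD4 and 44.1% of WT CD8. Between the V end and the listed J start lay 7.62 ± 4.12 bases in Tregs, 6.89 ± 3.81 in lung, 7.87 ± 3.91 in KO CD8, 5.44 ± 3.31 in KO CD4 and 7.96 ± 4.03 in WT CD8 (mean ± SD over clonotypes). KO CD4 thus had both the most intact V ends and the fewest bases between V and J, and also the shortest loops. Both measures rest on taking base 15 as the end of V, and a trimmed base restored by chance counts as V here. The bases between also rest on the listed J start, which lay as little as 1 base after the Cys codon in KO CD8, inside the V end. No base lay between V and J in 6.25% of KO CD4 clonotypes, which was just 3 of 48, against 0.926% (1 of 108 in Tregs) to 4.05% (15 of 370 in WT CD8) in the other libraries.

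Because the listed D segments were unusable, D content was read from 5 letters of each D segment that the other lacks, searched between the Cys codon and the end of CDR3 on the coding strand. GACAG, from TRBD1, was present in 24.1% of TRBV26 clonotypes of Tregs, 26.7% of lung CD4, 32.7% of KO CD8, 20.8% of KO CD4 and 27.6% of WT CD8. For the other segments the share was 20.4%, 21.5%, 24.03%, 19.96% and 22.4% in the same order. GACTG, from TRBD2, was present in 12.96%, 6.87%, 11.5%, 6.25% and 15.9% of TRBV26 clonotypes, against 17.6%, 18.3%, 20.1%, 19.1% and 20.6% of the other segments. With all matches counted, TRBD2 letters were thus less frequent with TRBV26 in 5 of 5 libraries. The V end itself finishes in G, which a following ACAG or ACTG completes: 29 of the 190 TRBD1 matches and 8 of the 91 TRBD2 matches began on that base. Such matches were not removed from the other segments, so no order is given for TRBD1. For TRBD2 the order holds for all matches alone. TRBV26 also paired more often with the TRBJ1 cluster, as given below, and the letters were not counted by J cluster. The letters can also arise from added bases or J ends, and no match does not mean that the D segment was absent.

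TRBV26 loops were less negatively charged than those of the other segments. Net charge was summed over the middle of the loop, leaving out the 3 residues after the Cys and the last 4, with Lys and Arg as plus 1 and Asp and Glu as minus 1. It averaged -0.138 in thymus Tregs, -0.212 in lung CD4, 0.0962 in KO CD8, -0.204 in KO CD4 and -0.164 in WT CD8, against -0.389, -0.409, -0.382, -0.428 and -0.407 for the other segments. The difference had the same sign in 5 of 5 libraries and averaged 0.278 charges per loop (range 0.197 to 0.478; exact sign-flip permutation p = 0.063, adjusted 0.141). Of the means listed here, the TRBV26 value of KO CD8 was the sole one above 0, from 52 clonotypes. Taken singly, the segment with the highest mean of each library was another than TRBV26 and was above 0 in 5 of 5 libraries, at 0.0825 to 0.298.

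The difference lay in acidic residues. TRBV26 loops held 0.468 Asp or Glu in Tregs, 0.432 in lung CD4, 0.288 in KO CD8, 0.367 in KO CD4 and 0.493 in WT CD8, against 0.741, 0.697, 0.681, 0.686 and 0.715 in the other segments. Basic residues differed by -0.0159 per loop on average, higher with TRBV26 in 2 libraries and lower in 3 (exact permutation p = 0.625). Position 5, which the V end usually fills with Leu in TRBV26, is part of this middle. Counted from position 7 on, the charge difference was 0.0876 and held its sign in 4 of 5 libraries (exact permutation p = 0.125), and among loops that began with CASSL in both groups it was 0.168 in 5 of 5. TRBV26 did not stand alone in this: by mean charge it ranked, from the least negative, 6 of 23 segments in Tregs, 9 of 22 in lung, 2 of 19 in KO CD8, 7 of 20 in KO CD4 and 3 of 23 in WT CD8.

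**Figure D4:**
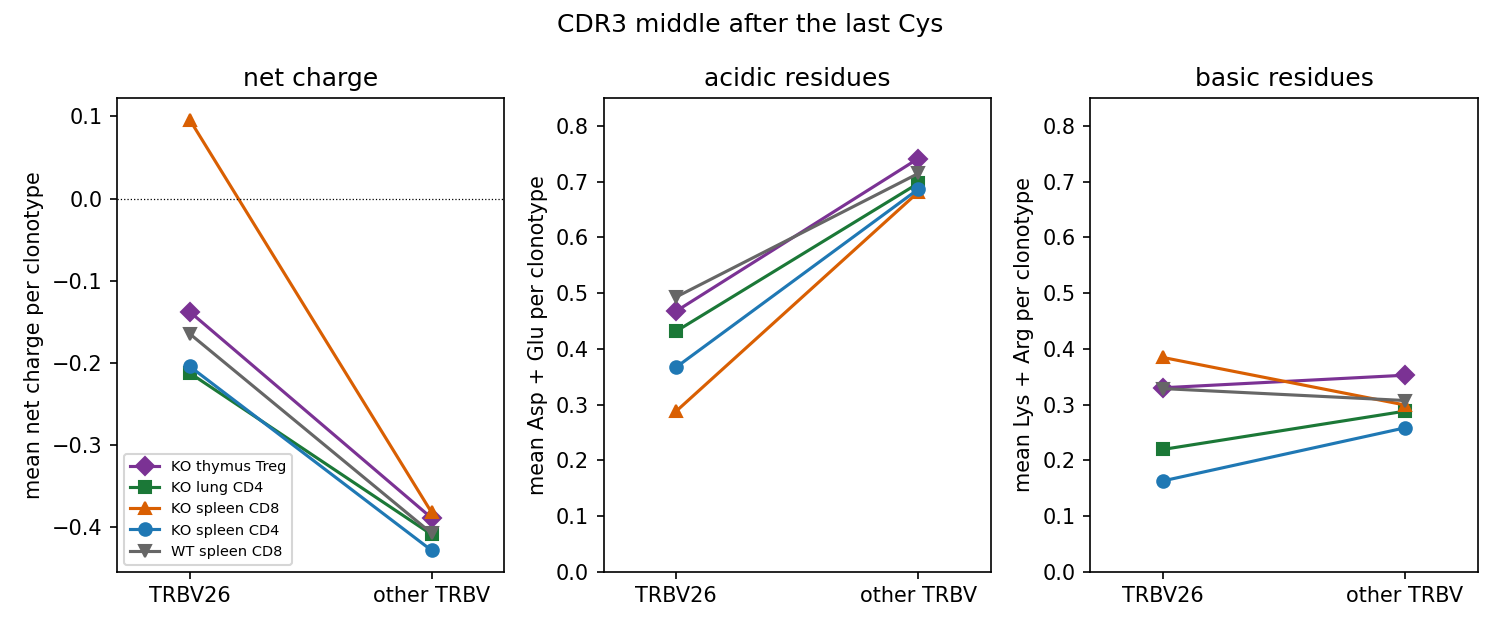
Mean net charge, acidic residues (Asp and Glu) and basic residues (Lys and Arg) in the middle of the loop (y axes, per clonotype), for TRBV26 and for the other TRBV segments of the same library, joined by a line. All 5 lines run downward from TRBV26 for charge and upward for acidic residues, while the lines for basic residues cross.

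A pair of hydrophobic residues at positions 6 and 7 has been used as a mark of self-reactive β chains. It was present in 1 of 109 TRBV26 clonotypes of thymus Tregs, 0 of 132 of lung CD4, 0 of 52 of KO CD8, 0 of 49 of KO CD4 and 7 of 371 of WT CD8. In the 3 libraries at 0 this allows shares of up to 2.27%, 5.77% and 6.12%, taken as 3 counts of the total. Loops of the other segments that start with Cys, end with Phe and are 8 to 20 residues long, counted from that first Cys, had the pair in 1.35%, 0.449%, 0.519%, 0.746% and 0.998%. Counted from the last Cys and without these limits, as in the test, the other segments had the pair in 3.97%, 2.10%, 2.06%, 3.36% and 1.59%. TRBV26 was then lower in 4 of 5 libraries, with a mean difference of -2.05 percentage points (exact sign-flip permutation p = 0.125, adjusted 0.188). A difference was not detectable at these numbers.

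Pairing with J segments was broad, and all 12 were found with TRBV26. Over the 5 libraries TRBJ2-7 was the most frequent partner, in 150 of 713 clonotypes (21.04%, against 21.7% of the other segments), followed by TRBJ2-1 in 91, TRBJ2-5 in 77 and TRBJ1-1 in 73. TRBJ1-5 was the least frequent with 19 (2.66%). The order differed between libraries: TRBJ2-7 led in Tregs (25.7%), KO CD8 (13 of 52, 25%) and WT CD8 (23.7%), whereas TRBJ2-5 led in KO CD4 (11 of 49, 22.4%; interval 11.8% to 36.6%), and TRBJ1-1 and TRBJ2-4 led in lung (21 of 132 each, 15.9%).

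The TRBJ1 cluster as a whole was paired with 32.1% of TRBV26 clonotypes in thymus Tregs (35 of 109), 49.2% in lung CD4 (65 of 132), 42.3% in KO CD8 (22 of 52), 42.9% in KO CD4 (21 of 49) and 31.8% in WT CD8 (118 of 371). The other segments paired with it in 29.6%, 36.7%, 33.9%, 33.8% and 30.004%. TRBV26 was higher in 5 of 5 libraries, by 6.88 percentage points on average and by 12.6 points in lung (exact sign-flip permutation p = 0.063, adjusted 0.141). Of single J segments, TRBJ1-6 was higher in 5 of 5 libraries (mean 5.96% of TRBV26 clonotypes against 3.56%) and TRBJ1-4 was lower in 5 of 5 (4.12% against 5.68%). Both had an exact permutation p of 0.063, adjusted to 0.375 over 12 J segments.

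TRBJ2-1 was most frequent in the CD8 libraries, with TRBV26 and with the other segments alike. It was paired with 5.50% of TRBV26 clonotypes in Tregs, 5.30% in lung CD4, 19.2% in KO CD8, 14.3% in KO CD4 and 16.4% in WT CD8. The other segments had 10.6%, 9.65%, 15.7%, 10.4% and 14.2%, also with both CD8 libraries highest. TRBJ2-2 was found in 10 TRBV26 clonotypes of Tregs (9.17%), 5 of lung CD4 (3.79%), 0 of KO CD8, 0 of KO CD4 and 10 of WT CD8 (2.70%), where the exact intervals of the zeros reach 6.85% in KO CD8 and 7.25% in KO CD4. By reads, TRBJ1-6 held 30.1% of the TRBV26 reads in lung, most of them in the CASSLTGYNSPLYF clone.

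**Figure D5:**
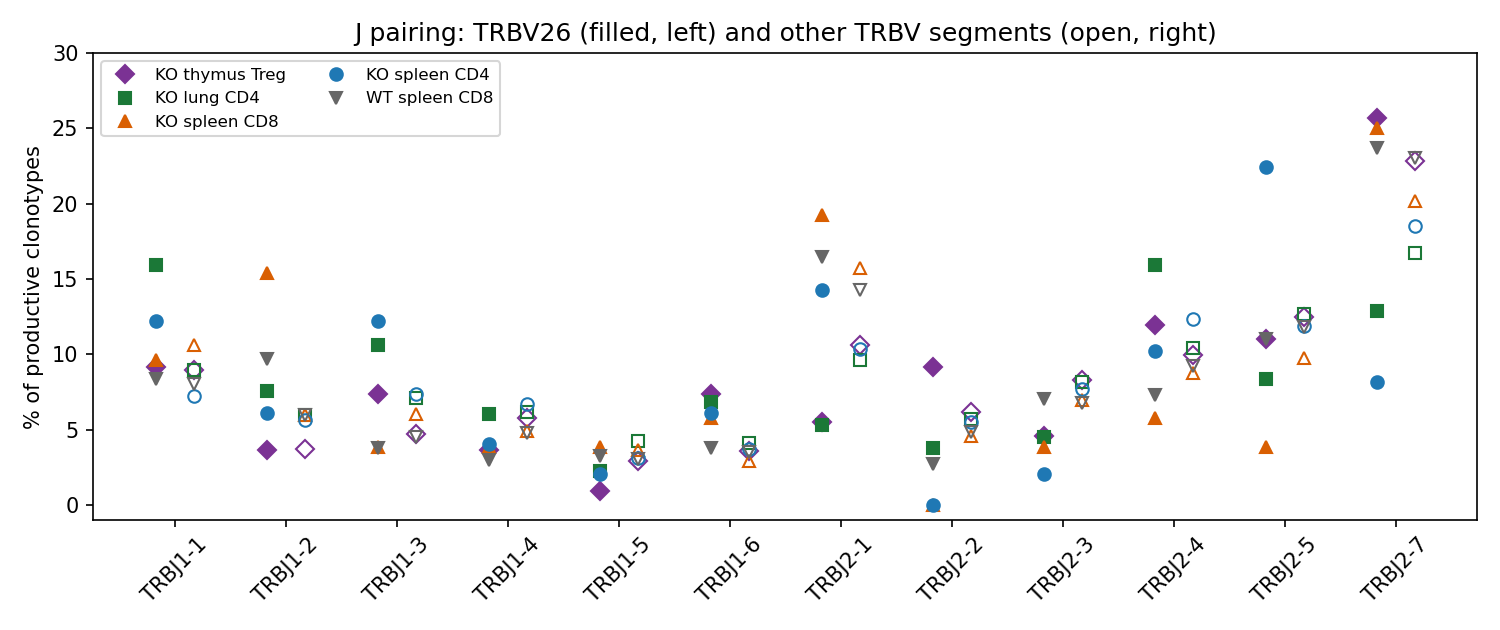
Percentage of productive clonotypes (y axis) that use each of the 12 J segments (x axis), with filled symbols on the left for TRBV26 and open symbols on the right for the other TRBV segments, 1 symbol shape and colour per library. TRBV26 values are more spread than those of the other segments, and TRBJ1-6 lies above and TRBJ1-4 below the open symbol of the same library in 5 of 5.

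Few TRBV26 sequences recurred between libraries. Of 693 distinct nucleotide clonotypes, 20 were found in 2 libraries and 0 in 3 or more. The pair from mouse 617, lung CD4 and spleen CD8, shared 2, which was 1.52% of the TRBV26 clonotypes of lung and 3.85% of those of spleen CD8. These were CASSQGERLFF with TRBJ1-4 (12 reads in lung, 39 in spleen CD8) and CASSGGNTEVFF with TRBJ1-1 (6 and 4 reads). The other segments of that pair shared 214, which was 6.64% of lung and 8.26% of spleen CD8. Between different mice, lung CD4 and WT CD8 shared 4 (3.03% of lung, 1.08% of WT CD8), where the other segments shared 281 (8.72% and 1.72%). KO CD4 and WT CD8 shared 3 (6.12% of KO CD4, 0.809% of WT CD8), where the others shared 174 (10.4% and 1.07%). KO CD8 and KO CD4 shared 0, where the others shared 53 (2.04% and 3.16%). Tregs and lung CD4 went the other way, with 3 shared (2.75% and 2.27%), where the others shared 55 (1.51% and 1.71%). Tregs shared 1 with KO CD8 (0.917% and 1.92%, against 1.10% and 1.54%). Tregs shared 3 with WT CD8 (2.75% and 0.809%, against 3.48% and 0.778%). In both of these pairs the order differed between the 2 libraries. In the pairs not given here TRBV26 had the lower percentage in both libraries. WT CD8 is by far the largest of these libraries, which moves with the counts.

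Of the shared sequences, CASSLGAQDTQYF with TRBJ2-5 had most reads, 22 in thymus Tregs of mouse 618 and 415 in lung CD4 of mouse 617. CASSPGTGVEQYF, the leading Treg clone, was also read 10 times in WT CD8. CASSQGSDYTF with TRBJ1-2 had 78 reads in Tregs and 9 in KO spleen CD4.

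At the amino acid level, from the last Cys on and with the same J, there were 618 forms, of which 35 were found in 2 libraries and 3 in 3. The sequences of the form that was spelled differently in each library are shown, with the bases between V and J in capitals.
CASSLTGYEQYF in thymus Tregs: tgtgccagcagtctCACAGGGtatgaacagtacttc
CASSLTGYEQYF in lung CD4: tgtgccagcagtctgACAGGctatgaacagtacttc
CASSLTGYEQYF in KO spleen CD8: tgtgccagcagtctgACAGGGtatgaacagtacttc
The 3 libraries held the same loop, with TRBJ2-7, in 3 nucleotide forms. These had 108 reads in Tregs, 21 in lung CD4 and 2 in KO CD8. The KO CD8 form differed by a base from each of the other forms shown. Whether its 2 reads came from a separate join was not tested. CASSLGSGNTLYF with TRBJ1-3 was found in lung CD4 (6 reads), KO CD4 (51) and WT CD8 (8) through 2 nucleotide forms. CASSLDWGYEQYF with TRBJ2-7 was found in Tregs (25 reads), lung CD4 (12) and WT CD8 (2), also through 2 forms. Over all libraries 37 amino acid forms had at least 2 nucleotide forms and 2 had 3, namely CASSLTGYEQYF and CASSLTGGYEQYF with TRBJ2-7, whose 3 forms, 21 reads in all, were in WT CD8.

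Nonproductive TRBV26 clonotypes were less frequent than those of the other segments. Of the clonotypes that held the V end shown above, 4 of 113 were nonproductive in thymus Tregs (3.54%), 3 of 135 in lung CD4 (2.22%), 1 of 53 in KO CD8 (1.89%), 0 of 49 in KO CD4, which allows up to 6.12% by 3 counts, and 18 of 389 in WT CD8 (4.63%). The other segments, pooled, had 16.5%, 13.4%, 14.1%, 15.5% and 7.87%. This pool includes segments that are pseudogenes in RefSeq, such as Trbv25, Trbv27 and Trbv28, and their part in the difference was not tested. TRBV26 was lower in 5 of 5 libraries, with a mean difference of -11.03 percentage points (exact sign-flip permutation p = 0.063, adjusted 0.141). The V end was required of TRBV26 alone. Without that filter 7 of 116 were nonproductive in Tregs (6.03%), 7 of 139 in lung CD4 (5.04%), 3 of 55 in KO CD8 (5.45%), 3 of 52 in KO CD4 (5.77%) and 20 of 391 in WT CD8 (5.12%). These were also below the other segments in 5 of 5 libraries, with a mean difference of -8.004 percentage points (exact permutation p = 0.063).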

How the data were processed

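Total RNA of the sorted cells was turned into TCR libraries with a SMARTer profiling kit, per the labels, and the genome build was mm10, per the submitters' notes. Which aligner, clonotype caller and filters were used is not stated in the sources used here. The deposited tables give a raw count of reads for each CDR3, per the file headers. The deposited fraction is each count over the file's total. Per the file headers, segment positions (other values) are in bases, and they were used only for the J start and the D listing.

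A clonotype was defined by the nucleotides of its CDR3, its V and its J. Usage was counted over productive clonotypes, because reads multiply in PCR and no molecular identifier is mentioned. TRBV26 features were measured after the last Cys. For the other segments the last Cys was used too, and an alternative used their first Cys. Clonotypes were taken to hold the V end if they shared 12 bases in a row with its first 66. Within-library differences between TRBV26 and the other segments were tested with the exact two-sided sign-flip permutation test and Benjamini-Hochberg adjustment over 9 features (Python 3.11.15, pandas 2.3.3, numpy 2.4.6, scipy 1.17.1). Shares, ratios and the test were checked on simulated data. All 44 segment names matched RefSeq symbols. The labels give each group 3 mice, but the files analysed hold 1 library of each of 5 groups, so no test of a condition was made.

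Clonotypes named were the 3 with most reads in each library, amino acid forms in 3 or more libraries and those with the most nucleotide forms. J segments at the highest and lowest share and the 3 V segments most alike were also named. The shared nucleotide clonotypes, and TRBJ1-4, TRBJ1-6, TRBJ2-1 and TRBJ2-2, were named after their values were seen. The members and lists were chosen with earlier results of these data known. Alternatives were reads as weights, at least 2 reads, amino acid clonotypes, equal depth of 96229 reads, near copies removed (1 base away with 10 times the reads), all clonotypes, 7 to 19 residues, another Cys and leaving out each library. Counting from the Cys codon, leaving out the 10 leading clonotypes, loops starting CASSL, counting from position 7, the first Cys of the other segments, averaging the libraries of mouse 617, all listed clonotypes for the nonproductive share, and charge with reads as weights were added after seeing the data.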

Additional observations from a re-analysis of the deposited data

Results flagged for a closer look

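Some clonotypes listed as TRBV26 did not match the V end shown above, searched up to and including the Cys codon. Bases outside that part were not searched, so whether these clonotypes held other TRBV26 sequence was not tested. All of these clonotypes were nonproductive, and all shared fewer than 12 bases in a row with the searched part. They had 14 reads in thymus Tregs, 11 in lung CD4, 9 in KO spleen CD8 and 6 in KO spleen CD4, each above the limit of 3 reads that a count of 0 allows, and 3 reads in WT spleen CD8, at that limit. Of these reads 27 belonged to a form of 139 bases and 12 to a form of 178 bases, both with TRBJ2-2 and both found in all 5 libraries. The productive clonotypes reported above do not include them.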

How the results depend on the processing

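With reads as weights the TRBV26 share was 2.32% in thymus Tregs, 0.255% in KO CD8, 1.497% in KO CD4 and 1.249% in WT CD8, and without the 10 leading clonotypes it was 0.417% in KO CD8, 1.76% in KO CD4 and 1.27% in WT CD8. The other 33 values of the share under alternatives stayed within their intervals. The KO over WT CD8 ratio, 0.885 by clonotypes, was 1.03 with at least 2 reads, on the other side of 1, 0.204 by reads and 0.328 by reads without the 10 leading clonotypes. The Treg over spleen CD4 ratio was 1.55 by reads and 1.37 without the 10 leading clonotypes, past the limit in both. The other 35 ratios kept their direction and call, and the causes were not tested. The length difference was 0.0123 residues with reads as weights (exact permutation p = 0.8125) and -0.406 to -0.222 with each library left out. With the other segments counted from their first Cys it was -0.288, with 7 to 19 residues -0.162, both below 0 in 5 of 5 libraries, and among loops starting CASSL -0.114. With the libraries of mouse 617 averaged, the differences over 4 mice were -0.361 residues, 5.98 TRBJ1 points and 0.264 charges, with the same sign in 4 of 4 and the smallest exact permutation p possible, 0.125. The TRBJ1 difference ranged from 5.46 to 8.15 points and the charge difference from 0.229 to 0.299 with each library left out, and both kept their sign under every alternative run. Shared clonotypes summed to 44 over the 10 pairs by amino acids, against 20 by nucleotides. No paired analysis was possible because the files analysed hold 1 library of each group, although the labels give 3 mice per group with numbers shared between groups. The 49 to 371 TRBV26 clonotypes per library limit every share given here.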
